A study of Homo sapiens with 6 samples.

Results

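The chaperonin genes described here are the 8 subunits of the cytosolic chaperonin CCT, *TCP1*, *CCT2*, *CCT3*, *CCT4*, *CCT5*, *CCT6A*, *CCT7* and *CCT8*, and the mitochondrial chaperonin genes *HSPD1* and *HSPE1*. They were chosen by symbol, after matching the Ensembl identifiers of the deposited tables to GENCODE, and they are 10 of 21475 genes. All 10 had a higher mean RNA level in *FGFR2* KO than in WT HaCaT cells, by a ratio of means from 1.58 for *CCT3* to 2.06 for *HSPD1*. None of these differences passed the multiple-testing threshold.

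The RNA came from 3 WT and 3 *FGFR2* KO lines of HaCaT, a spontaneously immortalized human keratinocyte line grown with 10% FBS, with 1 library per cell line. The KO lines were made with Cas9 and a guide against exon 7 of *FGFR2* and were grown from single sorted cells, so that each KO library is 1 clone. The study describes the sequenced WT lines as clonally expanded as well, but which WT line is which replicate is not given in the sources used here. Its wider set of WT lines also held the original population, which was not cloned. The comparison asks which genes differ in expression when the receptor FGFR2 is missing.

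CCT, also called TRiC, is a barrel of stacked rings in which each ring holds every subunit once, and it uses ATP to close over an unfolded protein and let it fold inside. Actin and tubulin are its best known clients, and they reach it largely through the co-chaperone prefoldin. In the mitochondrial matrix the same task falls to HSP60, encoded by *HSPD1*, which forms the barrel, and HSP10, encoded by *HSPE1*, which forms its lid. In keratinocytes, as in other cells, both chaperonins are counted among the abundant housekeeping machines.

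*FGFR2* (ENSG00000066468) was measured at 21.6, 39.7 and 15.0 FPKM in WT replicates 1 to 3 and at 3.04, 2.26 and 4.31 FPKM in KO replicates 1 to 3. FPKM give a level per length of gene and per depth of library, so that genes can be set side by side. Between libraries they also depend on the make-up of the RNA, and results after other scalings are given below. All KO libraries lay below all WT libraries (log2 fold change -2.73, SE 0.36, adjusted p = 0.261), as was so for 706 of the 12241 tested genes. The study reports a strong loss of *FGFR2* RNA in its tested KO lines by RT-qPCR. The keratinocyte label held, with *KRT5* at 7894 ± 2005 FPKM in WT and 10660 ± 3583 FPKM across the KO group (SD, n = 3 each, as for each ± below). Summed over the markers of other cell types, fibroblast genes reached 7.99 to 32.3 FPKM in WT and 6.90 to 12.5 FPKM in KO libraries, endothelial genes 18.1 to 27.2 and 5.82 to 17.5 FPKM, and melanocyte and immune genes at most 2.43 FPKM, with *MLANA* listed at 0 in 5 libraries and the fibroblast receptor *PDGFRB* at 0.041 FPKM or less in all 6. WT replicate 2 stood apart in 2 markers picked after their values were seen. *DCN* was at 15.5 FPKM against 0.201 and 0.249 FPKM and *CDH5* at 4.92 FPKM against 0.126 and 0.020 FPKM in WT replicates 1 and 3. Other markers did not follow, with *VWF* at 19.2 FPKM against 18.0 and 27.1 FPKM and *PDGFRB* at 0.021 FPKM against 0.027 and 0.041 FPKM. WT replicate 2 was the lowest WT library for 9 of the 10 chaperonin genes, against 35.4% of all tested genes. All 6 libraries are cultures of HaCaT, and these sums rest on few genes. The endothelial sum is mostly *VWF*, at 5.66 to 27.1 FPKM over the 6 libraries. The fibroblast sum is mostly *COL1A1*, at 6.82 to 16.7 FPKM, with *DCN* in WT replicate 2. Whether cells of another type were present, or had a part in the differences below, was not tested. Results without WT replicate 2 are given with the counts, and in bulk RNA fewer cells of a type and less RNA per cell cannot be told apart. The mitochondrial chromosome took 27.6%, 21.5% and 22.2% of the summed FPKM of WT replicates 1 to 3 and 15.8%, 23.7% and 11.9% of KO replicates 1 to 3, and the estimated depth was 67700000 to 88000000 fragments.

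*HSPD1* and *HSPE1* are neighbours on chromosome 2 and are transcribed away from each other, with start sites 539 bases apart, and the bases upstream of both are shown for that reason. Beside them stand *CCT2*, the CCT subunit with the largest difference between KO and WT, and *TCP1*, the subunit that kept closest to the other 7. Each is the 250 bases before the start site, from RefSeq on GRCh38.p14, 5′ to 3′ in the direction of transcription. Capitals mark TTCNNGAA or GAANNTTC, the paired units of the element that heat shock factors bind, CACGTG, the E-box of the MYC family, and CCAAT on either strand, the box bound by NF-Y. The windows are chr2:197499841-197500090 on the minus strand, chr2:197500129-197500378 on the plus strand, chr12:69585209-69585458 on the plus strand and chr6:159789603-159789852 on the minus strand.
HSPD1: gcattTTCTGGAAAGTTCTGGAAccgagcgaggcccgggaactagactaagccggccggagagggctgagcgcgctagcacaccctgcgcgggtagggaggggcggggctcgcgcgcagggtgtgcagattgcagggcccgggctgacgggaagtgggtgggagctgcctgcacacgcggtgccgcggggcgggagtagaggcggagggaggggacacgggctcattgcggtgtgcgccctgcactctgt
HSPE1: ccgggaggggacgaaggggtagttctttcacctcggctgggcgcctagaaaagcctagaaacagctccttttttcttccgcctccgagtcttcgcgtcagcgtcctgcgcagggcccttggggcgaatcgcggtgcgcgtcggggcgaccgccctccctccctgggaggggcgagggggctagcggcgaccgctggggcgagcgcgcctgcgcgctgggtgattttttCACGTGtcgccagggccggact
CCT2: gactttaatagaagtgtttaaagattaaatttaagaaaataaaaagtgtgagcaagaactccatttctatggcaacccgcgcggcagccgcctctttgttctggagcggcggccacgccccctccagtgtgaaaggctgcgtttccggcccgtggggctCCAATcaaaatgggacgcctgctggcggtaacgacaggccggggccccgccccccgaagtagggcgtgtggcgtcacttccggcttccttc
TCP1: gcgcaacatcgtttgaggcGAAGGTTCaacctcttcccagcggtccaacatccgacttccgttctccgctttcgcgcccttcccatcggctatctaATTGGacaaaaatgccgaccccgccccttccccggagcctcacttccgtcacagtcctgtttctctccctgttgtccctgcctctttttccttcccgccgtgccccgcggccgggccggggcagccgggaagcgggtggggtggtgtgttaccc

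In the *HSPD1* window the letters TTCNNGAA occurred at 245 and at 235 bases before the start, and GAANNTTC at 240 bases, overlapping both. This run of 18 bases lies between the start sites of the 2 MANE Select transcripts, the agreed reference transcripts, 294 to 311 bases before that of *HSPE1* and so just outside the window of that gene, which held CACGTG at 22 bases before its start. *TCP1* held GAANNTTC at 231 bases and CCAAT at 154 bases before its start, and *CCT2* held CCAAT at 91 bases. A window at the start of the MANE Select transcript was found for 8 of the 10 genes, all but *CCT5* and *CCT6A*. Of these 8, *HSPD1* and *TCP1* held either heat shock unit, against 11.6% of 35116 promoter windows of the same length, and *HSPE1* held CACGTG, against 6.34%. CCAAT stood in the windows of *TCP1*, *CCT2*, *CCT3* and *CCT8*, against 32.0% of all windows. The GC box GGGCGG was found in 6 of the 8, against 42.6%. TTCCGG, a single form among the sites of ETS factors, was found in *CCT2* alone, against 14.5%, and other forms of that site were not searched. *CCT4* and *CCT7* held none of the letters searched. The matches describe the sequence only.

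The 8 CCT subunit genes lie on 7 chromosomes and were among the more abundant RNAs, each above at least 93.9% of the 12241 tested genes, those averaging 0.5 FPKM or more. *CCT7* (ENSG00000135624, chromosome 2 from 73233420 to 73253021 in GRCh38) led the complex in mean level, with 244, 192 and 317 FPKM in WT replicates 1 to 3 and 402, 340 and 519 FPKM in KO replicates 1 to 3. All KO libraries lay above all WT libraries, by a log2 fold change of 0.75 (SE 0.24, adjusted p = 0.261). *CCT6A* (ENSG00000146731, chromosome 7 from 56051685 to 56063989), whose close relative *CCT6B* is known from testis, stood at 233, 197 and 318 FPKM in WT and at 346, 314 and 527 FPKM in the KO lines. It was the only member whose groups overlapped, since WT replicate 3 lay above KO replicate 2 (log2 fold change 0.66, SE 0.26, adjusted p = 0.276). *CCT6B* itself was at 0.863 ± 0.224 FPKM in the WT group and 0.895 ± 0.105 FPKM in the KO group.

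*CCT3* (ENSG00000163468, chromosome 1 from 156308968 to 156367873) was measured at 214, 189 and 258 FPKM in WT and at 312, 282 and 448 FPKM in the KO lines. Its groups did not overlap, but its log2 fold change of 0.64 (SE 0.21) was the smallest of the 10 genes. *CCT5* (ENSG00000150753, chromosome 5 from 10249929 to 10266389), a subunit able to form rings on its own in purified systems, stood at 210, 158 and 259 FPKM in WT and at 303, 283 and 447 FPKM in the KO lines. The lowest KO value was 1.09 times the highest WT value, with a log2 fold change of 0.72 (SE 0.25). *TCP1* (ENSG00000120438, chromosome 6 from 159778498 to 159789703), the subunit first described and the source of the name of the complex, had 176, 144 and 215 FPKM in WT and 277, 242 and 404 FPKM in the KO lines. Here the gap between the groups was 1.12-fold and the log2 fold change 0.77 (SE 0.24).

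The remaining 3 subunits formed a lower tier. *CCT2* (ENSG00000166226, chromosome 12 from 69585426 to 69601570) was measured at 91.2, 89.8 and 111 FPKM in WT and at 172, 136 and 279 FPKM in the KO lines. It had the largest log2 fold change of the CCT genes, 0.95 (SE 0.26), and the widest gap between groups, 1.23-fold from the highest WT to the lowest KO library. *CCT4* (ENSG00000115484, chromosome 2 from 61868085 to 61888671), the other subunit that can form rings on its own, stood at 101, 78.1 and 137 FPKM in WT and at 153, 151 and 210 FPKM in the KO lines. Its groups did not overlap (log2 fold change 0.72, SE 0.23). *CCT8* (ENSG00000156261, chromosome 21 from 29055805 to 29073797) had 86.7, 72.3 and 129 FPKM in WT and 152, 139 and 243 FPKM in the KO lines, with a log2 fold change of 0.89 (SE 0.28). *CCT8* sits on a chromosome whose 121 tested genes were shifted as a group, with a median log2 difference from the WT mean of -0.09, -0.17 and 0.28 in WT and 0.41, 0.34 and 0.47 in KO libraries, and a median log2 fold change of 0.41 against 0.06 to 0.12 on the chromosomes of the other members. After the chromosome medians were removed, the difference of *CCT8* was 0.37 (SE 0.18) and that of *CCT2* was 0.84. *CCT8*, and also *CCT6A* at 0.54 (SE 0.24), then no longer passed the unadjusted thresholds given below, which 8 of the 10 members did, against 6.08% of all tested genes.

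*HSPD1* (ENSG00000144381, chromosome 2 from 197486584 to 197516737) was measured at 93.0, 93.9 and 128 FPKM in WT and at 193, 142 and 314 FPKM in the KO lines. Of the 10 genes it had the largest log2 fold change, 0.98 (SE 0.29, adjusted p = 0.261), and also the widest spread among KO lines, 2.21-fold from lowest to highest. *HSPE1* (ENSG00000115541, chromosome 2 from 197500140 to 197503449) stood at 147, 103 and 201 FPKM in WT and at 236, 225 and 314 FPKM in the KO lines, without overlap (log2 fold change 0.81, SE 0.26). The ratio of *HSPD1* to *HSPE1* was not constant, at 0.631, 0.908 and 0.636 in WT and 0.821, 0.632 and 1.001 in KO lines. These ranges overlapped, so the balance of barrel and lid RNA did not separate the groups. *HSPE1* shares 192 exonic bases with the readthrough gene *HSPE1-MOB4*, which was listed at 2.24 to 7.95 FPKM, and 135 bases with *HSPD1* on the opposite strand, while 454 bases of *TCP1*, 9.30% of its exonic bases, lie opposite *ACAT2*. Larger stretches lie opposite annotated lncRNA genes, 1734 bases or 30.8% of *CCT5* opposite ENSG00000271980, and 10.2% and 6.70% of *CCT4* opposite ENSG00000236498 and ENSG00000286360. These lncRNA genes were not analysed here. The libraries were prepared with a kit that keeps the strand, but whether the quantification used it is not given in the sources used here, and reads from stretches with genes on both strands are uncertain to that extent.

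**Figure D1:**
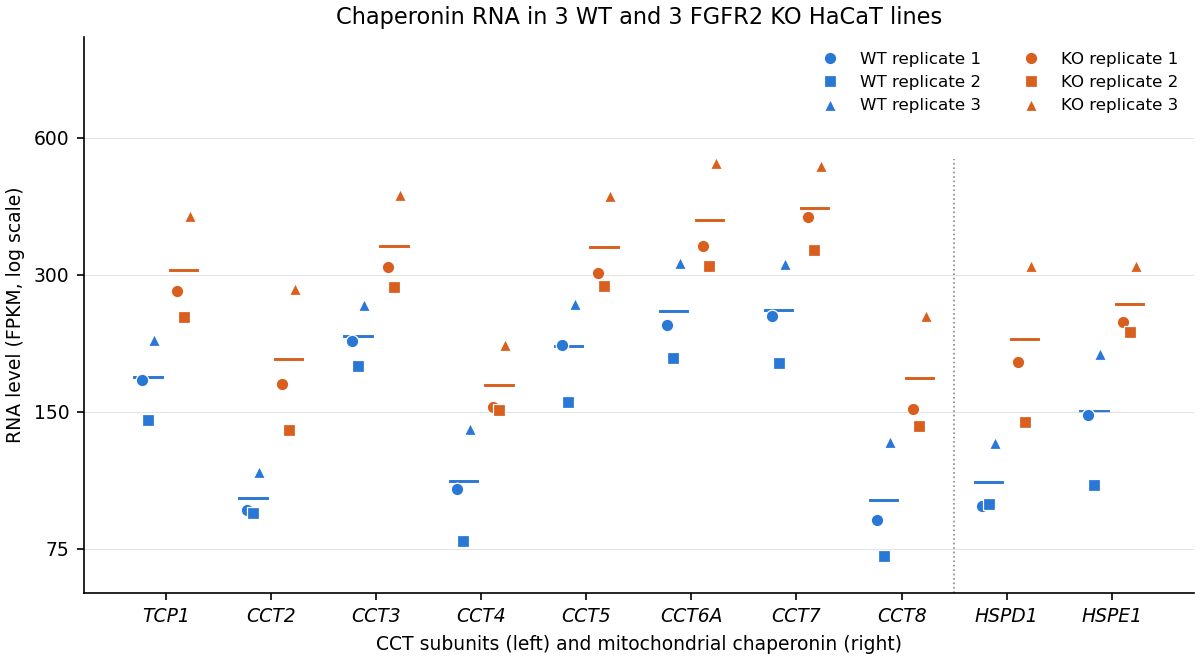
RNA level of the 10 chaperonin genes in FPKM on a log axis, with 1 symbol per library (circle, square and triangle for replicates 1, 2 and 3, blue for WT, orange for *FGFR2* KO) and a bar at each group's arithmetic mean. In every gene KO replicate 3 is the highest point, and only in *CCT6A* does a WT point (318 FPKM) lie above a KO point (314 FPKM).

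By limma with Benjamini-Hochberg adjustment, 0 of the 12241 tested genes (0%) reached an adjusted p of 0.05 or less together with a log2 fold change of 0.5 or more in either direction, and 0 of the 10 chaperonin genes did. The knocked-out gene *FGFR2* was not called either (adjusted p = 0.261). The study, which used DESeq2, reports differentially expressed genes at an FDR of 0.05, with *FGFR2* among them. The lack of calls in this fit on FPKM therefore does not show that no gene differs. At an unadjusted p of at most 0.05, without regard to size, there were 2065 genes. With that unadjusted p and a log2 fold change of 0.5 or more, all 10 chaperonin genes were higher in KO lines, against 10.2% of all tested genes, and none was lower, against 2.33%. In numbers these are 1251 genes higher and 285 lower, a split that was 785 and 521 after median-of-ratios scaling and 744 and 488 after removal of chromosome medians. The KO libraries lay above all WT libraries for 9 of the 10, against 18.3% of tested genes. The two-sided exact permutation test gave p = 0.1 for these 9, the smallest value that 3 against 3 can give, and p = 0.2 for *CCT6A*. Each member's fold change was larger than that of at least 92.0% of tested genes, whose median was 0.09.

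The counts depended on single libraries. Without KO replicate 3, 5 of the 10 genes (*TCP1*, *CCT2*, *CCT7*, *CCT8* and *HSPD1*) were higher at the unadjusted thresholds, against 4.36% of tested genes, and the median log2 fold change of the CCT genes went from 0.74 to 0.56. Without WT replicate 2 it was 7 of 10, all but *CCT3*, *CCT5* and *CCT6A*, against 8.02%, with a CCT median of 0.55. When libraries were weighted by their agreement with their group, 9 of the 10 genes passed the adjusted threshold, all but *CCT6A*, against 11.4% of tested genes. In that fit WT replicate 1 alone carried 89.7% of the WT weight.

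**Figure D2:**
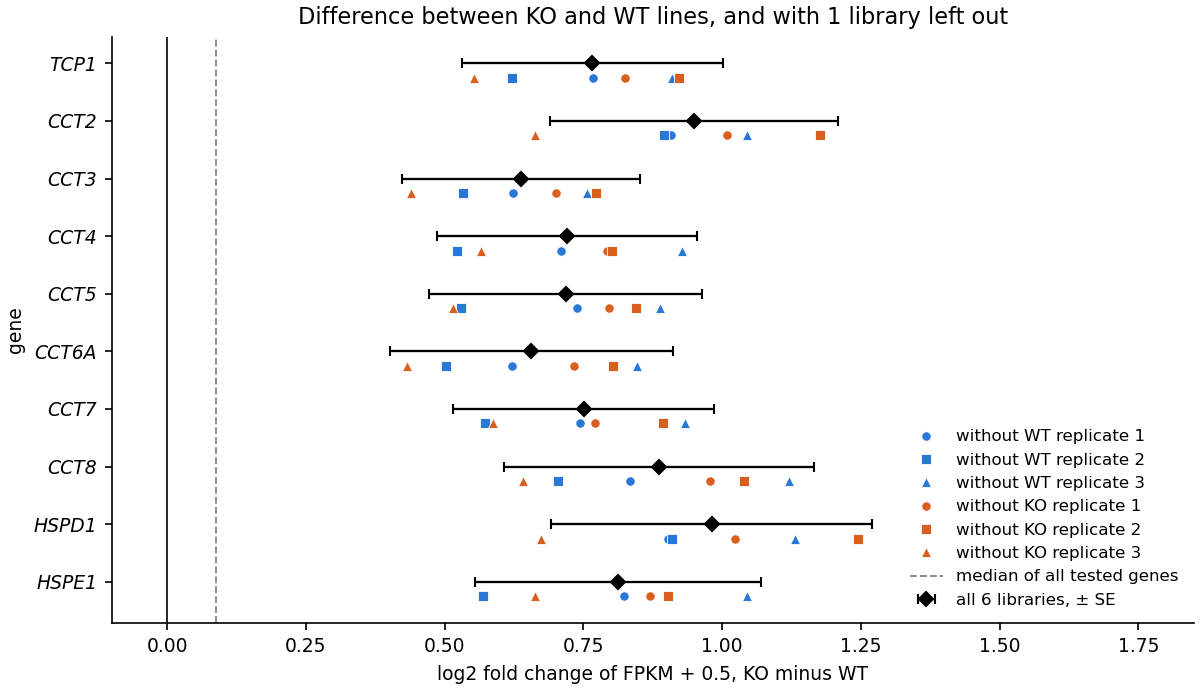
Log2 fold change of FPKM + 0.5 between KO and WT lines for each chaperonin gene, with the value from all 6 libraries as a black diamond with its SE, and below it the 6 values with 1 library left out each. Every value is above the median of all tested genes at 0.09 (dashed line), and for 7 of the 10 genes the smallest value is that without KO replicate 3 (orange triangle).

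The libraries were ordered alike in 9 of the 10 genes at both ends of both groups. KO replicate 3 was the highest and KO replicate 2 the lowest of the KO lines for 10 of 10 members, against 46.6% and 41.3% of all tested genes. Among the WT lines, replicate 3 was the highest for 10 of 10, against 39.7%, and replicate 2 the lowest for 9 of 10, against 35.4%. The exception was *HSPD1*, in which WT replicates 1 and 2 were nearly equal. The geometric mean of the 8 CCT genes was 157, 130 and 203 FPKM in WT and 249, 222 and 365 FPKM in the KO lines. The lowest KO line lay above the highest WT line, at 222 against 203 FPKM. Within the WT lines the order was the reverse of *FGFR2*, which was lowest in replicate 3 (15.0 FPKM) and highest in replicate 2 (39.7 FPKM), while among the KO lines replicate 3 was highest and replicate 2 lowest in both. The 8 CCT genes together took 0.174%, 0.146% and 0.228% of the summed FPKM in WT and 0.282%, 0.249% and 0.417% in KO libraries. Counted without the mitochondrial chromosome, these shares were 0.240%, 0.186% and 0.293% against 0.334%, 0.326% and 0.473%, and the groups still did not overlap.

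Inside the complex, the RNA levels kept the same upper and lower tiers in every library. The highest subunit was 2.49 to 2.88 times the lowest in every library, although the protein ring holds the subunits in equal number. *CCT7* and *CCT6A* exchanged the first and second places, with *CCT7* above in 3 of 6 libraries, and *CCT3* lay above *CCT5* in 4 of 6, so neither pair differed in order beyond the spread. *TCP1* took the fifth place in all 6 libraries. Among the lower 3, *CCT2* lay above *CCT4* in 3 of 6 libraries and *CCT4* above *CCT8* in 5 of 6. Relative to the geometric mean of the 8, the log2 ratio of *TCP1* varied least, with an SD of 0.030 over the 6 libraries, and that of *CCT2* most, with an SD of 0.181. *CCT2* was at -0.78, -0.53 and -0.87 in WT and at -0.53, -0.70 and -0.39 in KO lines, and these ranges overlapped. The ratios of *CCT3* and *CCT6A* did not overlap between groups and were lower in KO lines by 0.12 and 0.10. These subunits had the smallest log2 fold changes of the 8, 0.64 and 0.66, so their mean ratios to the set fall by construction. The share of all genes whose ratio to this mean separates the groups was not computed. For *CCT3* they were 0.45, 0.54 and 0.35 in WT against 0.33, 0.34 and 0.30 in KO lines, a shift small beside the 0.64 by which its level differed.

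**Figure D3:**
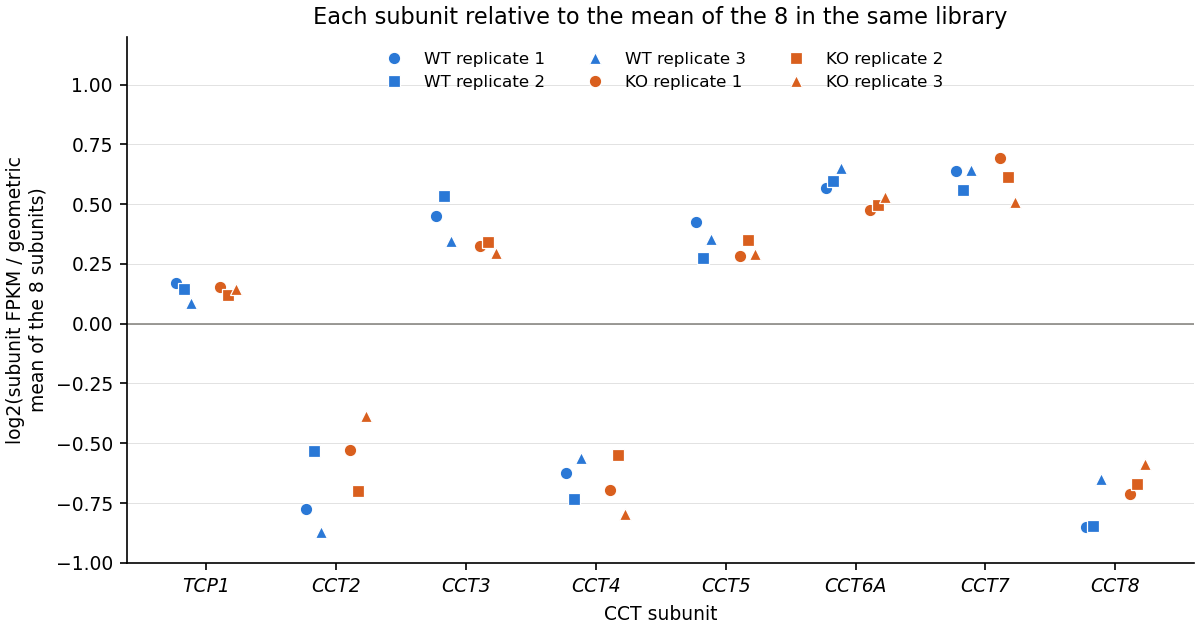
Log2 ratio of each CCT subunit's FPKM to the geometric mean of the 8 subunits in the same library, with symbols and colours for replicates and groups as in the legend. *CCT7*, *CCT6A*, *CCT3* and *CCT5* lie above 0.25 in every library, *TCP1* near 0.14, and *CCT2*, *CCT4* and *CCT8* at -0.39 or lower. The WT and KO points separate only for *CCT3* and *CCT6A*, the subunits with the smallest fold changes.

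How closely a gene followed the complex was measured by the SD, over the 6 libraries, of its log2 ratio to the mean of the other CCT genes, so that a small SD means parallel levels. It was 0.034 for *TCP1*, and 0% of 7642 genes averaging 10 FPKM or more had a smaller one. For *CCT5*, *CCT7*, *CCT6A*, *CCT3* and *CCT4* the SD was 0.066 to 0.112, with 0.118% to 0.916% of genes smaller, and for *CCT8* 0.123, with 1.41% smaller. *CCT2* followed the other 7 less closely, with an SD of 0.207 and 5.90% of genes smaller. Against the mean of all 8, the mitochondrial *HSPE1* had an SD of 0.132 and *HSPD1* 0.203. The median SD of all genes was 0.481 to 0.505, depending on the reference. Outside the members, the genes nearest to the CCT mean were *EBNA1BP2*, a ribosome biogenesis factor, at 0.051, *TOMM5*, a subunit of the outer membrane translocase of mitochondria, at 0.056, *LAS1L*, a factor of ribosomal RNA processing, and *MRPL24*, a mitochondrial ribosomal protein, both at 0.057, and *TUBGCP5*, a part of the gamma-tubulin ring complex, at 0.062. Nearest to *HSPD1* were *ADISSP* at 0.057, a gene listed only as ENSG00000275464 at 0.067, *NXT1*, an mRNA export factor, at 0.089, *ZMYND19* at 0.093 and *DUT*, the dUTPase, at 0.095. These likenesses rest on 6 libraries of 2 groups, so that the points share the difference between the groups.

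The genes that deliver clients to CCT or take them over had smaller median differences than the CCT genes. Of the 6 prefoldin genes, *PFDN2* alone was higher in KO lines at the unadjusted thresholds, which 10.2% of all tested genes passed, with 48.0, 45.2 and 54.1 FPKM in WT and 74.0, 60.9 and 102 FPKM in the KO lines (log2 fold change 0.65), and the median of the 6 was 0.19. Without KO replicate 3, 0 of the 6 passed, against 4.36%. The 3 tested phosducin-like genes, co-factors of CCT, had a median of 0.17 with 0 past these thresholds, and *TXNDC9* was at 37.9 ± 3.89 and 43.0 ± 6.62 FPKM and *PDCL* at 31.7 ± 1.79 and 33.9 ± 2.54 FPKM in WT and KO lines. The 6 tubulin cofactors, which assemble the tubulin dimer after CCT, had a median of 0.16 with 0 past the thresholds, with *TBCA* at 116 ± 34.7 and 113 ± 7.39 FPKM and *TBCD* at 64.3 ± 5.24 and 85.8 ± 13.9 FPKM. The 4 tested chaperonin-like genes, among them *MKKS* at 11.6 ± 0.425 and 12.7 ± 0.905 FPKM and *BBS10* at 3.90 ± 0.531 and 3.81 ± 0.635 FPKM, had a median of 0.01.

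Among the clients, actins and tubulins had larger values. All 12 tested genes had positive values, against 60.6% of all tested genes, with a median log2 fold change of 0.57, and 3 of them were higher at the unadjusted thresholds, against 10.2%. *ACTG1* was measured at 565, 552 and 436 FPKM in WT and at 941, 803 and 1250 FPKM in the KO lines (log2 fold change 0.93), *TUBB* differed by 0.90 and *ACTB* by 0.71. For 5 of the 12 all KO libraries lay above all WT libraries, against 18.3% of tested genes. Among these were *TUBB* and *ACTG1* and *ACTB*, which encode the cytoplasmic actins. The 11 other clients, which include the APC/C activator *CDC20*, the G protein subunit *GNB1* and members of the BBSome, had a median of 0.03, and *RPTOR*, a subunit of mTORC1, was the single gene past the thresholds (0.56). Without KO replicate 3, 1 of the 12 actin and tubulin genes and 0 of the other clients passed, against 4.36% of all tested genes, and without WT replicate 2 it was 1 of the 12 and 1 of the other clients, against 8.02%.

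The cytosolic HSP70, HSP90 and HSP40 genes, with their co-chaperones, had the largest share of genes past the unadjusted thresholds among the lists around the members. Of the 18 genes 10 were higher, against 10.2% of all tested genes, and 0 lower, against 2.33%, with a median log2 fold change of 0.56. *HSPA8*, the constitutive HSP70, was measured at 636, 579 and 888 FPKM in WT and at 1551, 1191 and 2415 FPKM in the KO lines (1.26), and *HSP90AA1* (0.998), *FKBP4* (0.78) and *HSPH1* (0.77) followed. For 9 of the 18 all KO libraries lay above all WT libraries, against 18.3% of tested genes. *FKBP4* and *HSPH1* were not among these, since KO replicate 2 (167 and 108 FPKM) lay below WT replicate 3 (171 and 121 FPKM). The libraries of *HSPA8* stood in the order of the chaperonins, with KO replicate 3 highest and WT replicate 2 lowest. Without KO replicate 3, 2 of the 18 genes passed, against 4.36% of all tested genes, and without WT replicate 2, 3 did, against 8.02%. The heat shock response list holds heat shock factors themselves beside some of the genes that heat and proteotoxic stress induce. It is not a full set, since genes of that kind also stand in the cytosolic list. Whether a heat shock response took part in the differences was not tested. Its 8 tested genes had a median of 0.02 and 0 past the thresholds in either direction. They went both ways, from -0.69 to 0.46, with 4 of 8 positive. With 1 library left out, their median ran from -0.03 (without WT replicate 2) to 0.26 (without WT replicate 3). Without KO replicate 3 it was 0.24, with 6 of 8 positive and 0 higher at the thresholds, against 4.36% of tested genes. With library weights it was 0.28, and 2 of the 8 were higher, as were 1667 of the 12241 tested genes. For 2 of the 8 all KO libraries lay above all WT libraries, against 18.3% of tested genes. The lists were not tested against each other. *HSPB1* was at 1399 ± 215 FPKM in the WT group and 1031 ± 411 FPKM in the KO group and *HSPA1A* at 278 ± 45.8 and 381 ± 7.58 FPKM.

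In the mitochondria, 3 of the 8 chaperone genes beside *HSPD1* and *HSPE1* were higher at the unadjusted thresholds, against 10.2% of all tested genes, with a median log2 fold change of 0.49. Without KO replicate 3, 1 of the 8 passed, against 4.36%. *TRAP1*, the mitochondrial HSP90, was measured at 138, 104 and 166 FPKM in WT and at 241, 200 and 330 FPKM in the KO lines (0.91), and *GRPEL1* (0.64), the nucleotide exchange factor of the mitochondrial HSP70, and *DNAJA3* (0.51), its HSP40 partner, were the others. *HSPA9*, the mitochondrial HSP70 that hands proteins to HSP60, was at 82.5 ± 17.3 FPKM in the WT group and 113 ± 15.9 FPKM in the KO group. The ratio of *HSPD1* to *HSPA9* was 1.16, 1.42 and 1.27 in WT and 1.95, 1.30 and 2.41 in KO lines, with KO replicate 2 inside the WT range. Of the 7 protease genes that degrade misfolded matrix and inner membrane proteins, *LONP1* alone was higher (18.3, 15.6 and 27.6 FPKM in WT, 40.5, 27.8 and 40.1 FPKM in the KO lines, 0.82), and the median was 0.08.

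**Figure D4:**
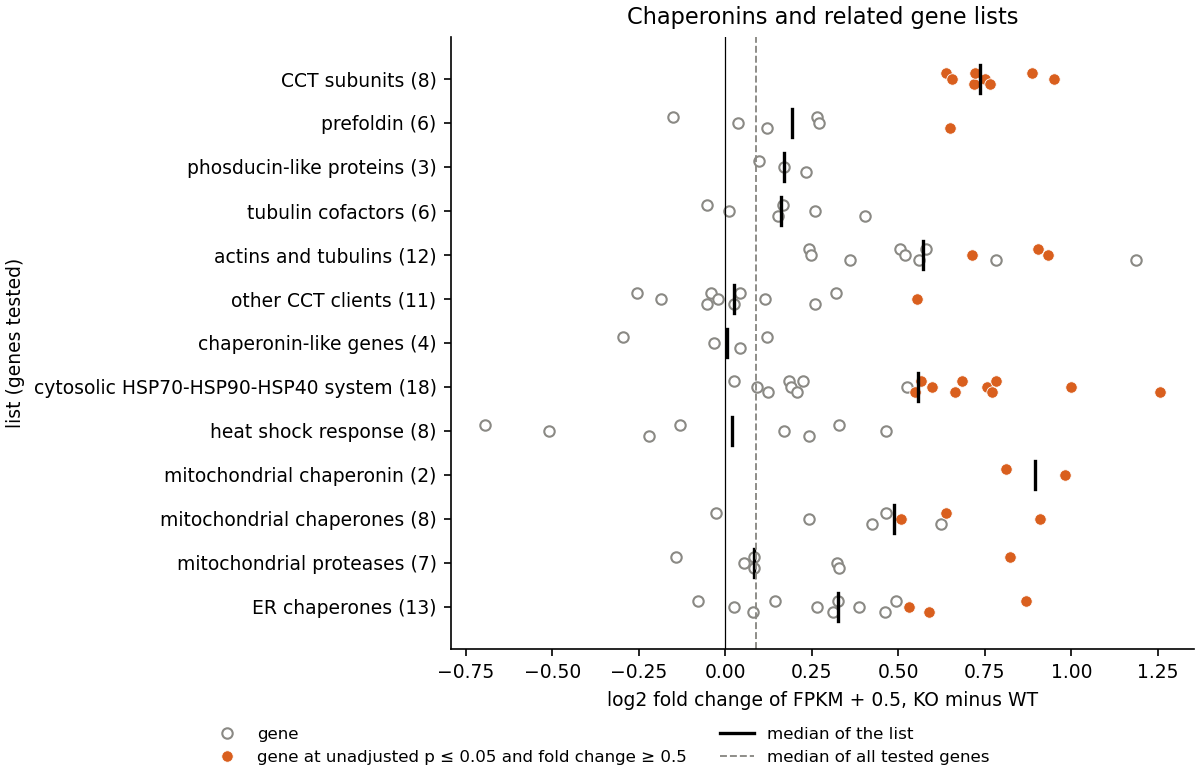
Log2 fold change of FPKM + 0.5 between KO and WT lines for the tested genes of each list, 1 circle per gene, filled where the unadjusted p is at most 0.05 and the log2 fold change at least 0.5, with a bar at the median of the list and a dashed line at the median of all tested genes (0.09). The CCT and HSP60 lists lie wholly to the right of 0.6, and the HSP70 and HSP90 genes and the actins and tubulins reach as far. Prefoldin and tubulin cofactors lie mostly around the dashed line, and the heat shock response genes lie on both sides of it, from -0.69 to 0.46.

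Since the mitochondrial chromosome took a smaller share of FPKM in 2 of the 3 KO libraries, the members were also compared after scaling to the FPKM of all other genes. All 10 passed the unadjusted thresholds, against 7.6% of all tested genes, and the median log2 fold change of the CCT genes was 0.66. Median-of-ratios scaling, under which the median of all tested genes was -0.02 instead of 0.09, gave a CCT median of 0.62 and left 9 of the 10 past these thresholds, all but *CCT6A*, against 6.41%. The p-values measure only the spread between these 6 lines, which includes differences between clones.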

How the data were processed

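RNA of 3 WT and 3 *FGFR2* KO HaCaT lines was sequenced. The authors trimmed reads with fastp 0.20.0, quantified them with Kallisto 0.46.1 against GENCODE transcripts on GRCh38, and deposited FPKM per gene; how the FPKM were calculated is not given in the sources used here. From 21493 listed genes, 18 copies of pseudoautosomal genes were dropped, and the rest were named by GENCODE release 44, from which the coordinates on GRCh38 were taken. Depth was estimated from the steps of low FPKM values. Since whole fragments accounted for only 67.8% to 72.5% of low values (within 0.02), count models were not run.

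Genes averaging 0.5 FPKM or more were compared on log2(FPKM + 0.5) by limma 3.58.1 in R 4.3.3, with a mean-variance trend, Benjamini-Hochberg adjustment over 12241 genes and no covariates. Fold changes are on this scale. The call required an adjusted p of 0.05 or less and a log2 fold change of 0.5 or more in size, and the fit was tested on simulated data. Exact two-sided permutation tests were run per member. The members, the gene lists, the motifs and the tests were chosen with earlier results of these data known. Named genes are the members, *FGFR2*, up to 4 genes per list with the largest fold change past the unadjusted thresholds or otherwise the 2 with the highest level, and the 5 nearest in pattern. *CCT6B*, *HSPA9*, *CDC20*, *GNB1*, *KRT5*, *MLANA*, *PDGFRB*, *DCN*, *COL1A1*, *CDH5*, *VWF*, *HSPE1-MOB4* and *ACAT2* were added after their values were seen. There were 19 alternatives. Pseudogenes of the members were not analysed here.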

Additional observations from a re-analysis of the deposited data

How the results depend on the processing

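The members' log2 fold changes were positive in all 190 values from 10 genes and 19 alternatives, from 0.37 (*CCT8* without chromosome medians) to 1.24 (*HSPD1* without KO replicate 2). The alternatives reuse the same libraries, and those that alter only the filter, the variance model or the block leave the fold changes as they were. The 190 values are therefore not independent, and in the main fit 60.6% of all tested genes were positive. Past the adjusted threshold were 9 of the 190 values, all with library weights, which called 1396 genes and 9 members and gave 495 genes lower at the unadjusted thresholds. The counts of genes higher and lower at these thresholds, 1251 and 285, were 785 and 521 with median-of-ratios scaling, 803 and 502 with quantile normalization, and 744 and 488 after removal of chromosome medians, which left 8 of the 10 members higher. Without a filter 155 were lower. With 1 library left out, 535 (without KO replicate 3) to 1747 genes were higher, 95 to 509 lower, 5 to 10 members higher, and the CCT median was 0.55 to 0.92. The groups share replicate numbers, but same-numbered libraries did not all deviate together (r over genes = -0.206, 0.225 and 0.049), so the numbers were not read as pairs. With the replicate block 1336 genes were higher and 426 lower, and 0 were called. At the members' levels the precision rests on 3 lines per group and the spread between them, and the exact test cannot give a p under 0.1.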

Other observations

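The chaperones of the endoplasmic reticulum, which fold secreted and membrane proteins and belong to neither chaperonin, had a smaller median difference than the members. Of 13 genes 3 were higher in KO lines at the unadjusted thresholds, against 10.2% of all tested genes, and 0 lower, against 2.33%, and the median log2 fold change was 0.33. *SDF2L1* was at 7.90, 9.09 and 10.7 FPKM in WT and at 18.1, 9.74 and 28.2 FPKM in KO lines (0.87), with KO replicate 2 inside the WT range. *HSPA5*, the HSP70 of this compartment, differed by 0.59 and *HYOU1*, a relative of HSP70, by 0.53. Without KO replicate 3, without WT replicate 2, or with median-of-ratios scaling, 0 of the 13 passed. *CALR*, a lectin chaperone, was at 404 ± 74.1 FPKM in the WT group and 379 ± 30.9 FPKM in the KO group (SD, n = 3 each). *CALR* was chosen after its values were seen.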
